A study of Homo sapiens with 4 samples.

Results

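Matrix metalloproteinases (MMPs) and their tissue inhibitors (TIMPs) were examined in RNA sequencing of HN12 cells, a line of head and neck squamous cell carcinoma (HNSCC). The 10 genes were chosen by symbol, namely MMP1, MMP2, MMP3, MMP9, MMP10, MMP13, MMP14, TIMP1, TIMP2 and TIMP3, among 26726 genes listed, and all 10 had enough counts for a test. The choice was made with earlier results of these data known. Parental HN12 cells with intact ATAD3A (WT) were compared with HN12 cells carrying a CRISPR/Cas9 knockout of ATAD3A (KO), with 2 libraries in each group. The study's methods describe plasmid transfection and puromycin selection for the knockout cells, and neither for the parental cells. The knockout cells descend from clones grown out of single cells, and the libraries are not assigned to a clone by the labels. Differences between KO and WT therefore cannot be told apart from those between a clone and its parental culture, or from effects of the selection. Replicates were separate cultures according to the study's methods.

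MMPs are zinc-dependent endopeptidases that cut collagens, laminins, fibronectin and other proteins outside the cell. Most are secreted as inactive precursors whose prodomain holds the catalytic zinc through a cysteine until it is removed, and TIMPs block the active enzymes by binding the catalytic site in a complex of equal parts. In squamous carcinomas, collagenases, stromelysins and gelatinases are studied for their part in the breakdown of the basement membrane and the stroma, and many of their genes respond to growth factor and cytokine signals through AP-1 and ETS factors. The study asked how loss of ATAD3A, an ATPase of the mitochondrial membranes, alters signalling and growth of HNSCC cells. It also measured invasion, which it reported to be reduced in ATAD3A knockout HN12 cells.

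What the 7 MMPs share in sequence is the stretch that binds the catalytic zinc. These 33 bases of each transcript (GENCODE release 29), written 5′ to 3′, were found by their translation into the zinc-binding motif of the family. They are shown because all 7 MMPs carry the motif and because similar stretches bear on which reads can be told apart. Capitals mark the 17 bases that are identical in all 7 genes.
MMP1: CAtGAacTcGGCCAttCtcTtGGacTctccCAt
MMP13: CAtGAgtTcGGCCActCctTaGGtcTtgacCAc
MMP3: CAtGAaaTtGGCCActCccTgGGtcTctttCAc
MMP10: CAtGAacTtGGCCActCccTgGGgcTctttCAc
MMP2: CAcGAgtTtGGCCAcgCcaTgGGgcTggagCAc
MMP9: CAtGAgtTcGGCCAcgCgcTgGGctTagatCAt
MMP14: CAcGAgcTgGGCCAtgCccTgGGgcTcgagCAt
MMP3 and MMP10, both stromelysins, matched at 31 of 33 bases, and MMP1 and MMP2 were the least alike, at 18 of 33. Over whole transcripts, 59 of the 50-nt stretches of MMP3 also occurred in MMP10, which is 3% of the stretches of MMP3 and 3.45% of those of MMP10. No other MMP or TIMP gene shared an exact 50-nt stretch with any of the 10, each taken as its longest protein-coding transcript. At the read length used here, exactly matching reads of these transcripts could be exchanged within the family only between MMP3 and MMP10. There it concerned a small part of each transcript. Stretches alike except for mismatches were not searched.

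ATAD3A itself had 702 and 492 counts in the KO libraries and 1802 and 1471 in the WT libraries, a log2 fold change of -1.70 (standard error, SE, 0.091; adjusted p = 1.58e-17 from the quasi-likelihood test of edgeR). Library totals lay between 13569971 and 18943547 counts. Of the 12 squamous epithelial markers, 12 were tested, 7 were higher and 5 lower in KO, and their RPKM (reads per kilobase of gene, scaled to the counted reads of the library) summed to between 1273 and 2510 per library. The keratin genes KRT6A (2.76), KRT5 (2.63), KRT14 (2.20), KRT16 (1.503) and KRT17 (0.94) rose by these log2 values, and DSG3 (-1.12), DSP (-0.49), EPCAM (-0.34), TP63 (-0.28) and CDH1 (-0.24) were lower. The part of these epithelial changes in those of the MMPs and TIMPs was not tested. CDH1 encodes E-cadherin, whose protein the study reported to be higher in ATAD3A knockout HN12 cells, unlike the RNA here. Of the fibroblast markers 8 of 10 were analysed, summing to between 1.87 and 2.67 RPKM, most of it COL1A1. COL1A2, COL3A1, PDGFRA, THY1, FAP and POSTN were at 4 counts or fewer in each library. PDGFRB had 8 and 14 counts in KO and 32 and 15 in WT and did not pass the test (log2 fold change -1.30, edgeR adjusted p = 0.0764). Of the leukocyte markers 7 of 10 were analysed, summing to between 1.82 and 3.38 RPKM. PTPRC, the pan-leukocyte marker, had 9 counts or fewer, and CSF1R was lower in KO (log2 fold change -0.81, edgeR adjusted p = 0.0336). CD14 had 39 and 62 counts in KO and 42 and 49 in WT and did not pass the test (log2 fold change -0.085). ITGAM, at 15 counts or fewer in each library, did not pass either. Of the endothelial markers 6 of 7 were analysed, summing to 2.54 and 2.84 RPKM in KO and 0.969 and 1.249 RPKM in WT, with ERG, which is also an ETS factor, the one called higher.

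Of the 10 genes, 9 were higher in KO than in WT and 0 were lower at an adjusted p under 0.05, and 6 of them rose by more than 2-fold. Over all 15104 genes tested, 20.4% were higher, 19.1% were lower and 3.4% were higher by more than 2-fold. The 9 genes were MMP3, MMP10, TIMP3, MMP2, MMP1, MMP9, TIMP1, MMP14 and TIMP2, in order of their log2 fold change, and MMP13 was the exception. By unadjusted p under 0.05 the number lower was also 0, as it was with DESeq2. The median log2 fold change of the 10 genes was 1.36, against -0.0042 for all genes tested. In 9 genes both KO libraries lay above both WT libraries by RPKM, as in 28.7% of all genes tested, and in 1, MMP13, both lay below, as in 40.0% of all. RPKM is scaled by library totals, and with that scaling the median log2 fold change of all genes tested was -0.074. More transcripts per cell and more expressing cells cannot be told apart in such bulk libraries.

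**Figure D1:**
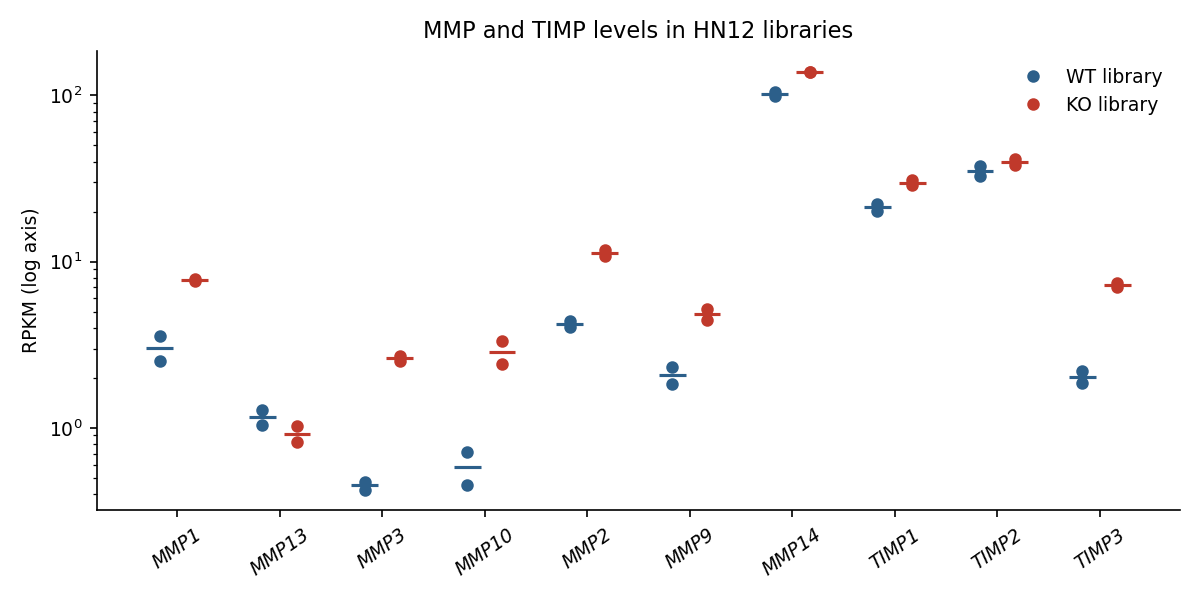
RPKM (log axis) of the 10 genes in each of the 4 libraries, with WT in blue and KO in red; points are libraries and short bars are means of 2. KO points lie above WT points in 9 genes, with the narrowest gap in TIMP2, and MMP13 lies slightly lower in KO.

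The collagenases MMP1 and MMP13 cleave fibrillar collagen, and they did not move alike. MMP1, the interstitial collagenase, stood at 7.88 and 7.64 RPKM in the KO libraries and at 2.51 and 3.55 RPKM in the WT libraries. Both KO libraries were more than 2.15 times as high as either WT library, while WT replicate 2 was 1.42 times WT replicate 1. The log2 fold change was 1.43 (SE 0.19, edgeR adjusted p = 7.03e-08), a 2.70-fold rise with a 95% interval from 2.08 to 3.50. MMP13, which cleaves type II collagen with high efficiency and is expressed in many squamous carcinomas, stood at 0.816 and 1.03 RPKM in KO and at 1.04 and 1.28 RPKM in WT, from 42, 47, 43 and 47 counts. The KO libraries lay below the WT libraries, but the closest pair across the groups differed only by a ratio of 0.987. RPKM is scaled by library totals, and with that scaling edgeR gave MMP13 a lower log2 fold change, -0.33, than the main test did. Its log2 fold change of -0.26 did not pass the test (SE 0.35, edgeR adjusted p = 0.606), and the interval of the fold ran from 0.509 to 1.37, so a rise of the size seen in MMP1 lies outside it, while changes within the interval cannot be told from none at these counts.

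The stromelysins MMP3 and MMP10 cut proteoglycans, laminin and fibronectin and activate other MMP precursors, and they had the highest fold changes of the 10. MMP3 had 104 and 85 counts in KO and 13 and 13 in WT, which is 2.72 and 2.51 RPKM against 0.425 and 0.475 RPKM. All 4 ratios of a KO to a WT library were between 5.28 and 6.41. Its log2 fold change was 2.60 (SE 0.37, edgeR adjusted p = 3.9e-07), or 6.07-fold with an interval from 3.62 to 10.2. MMP10 had 81 and 98 counts in KO and 12 and 17 in WT, or 2.43 and 3.32 RPKM against 0.450 and 0.713 RPKM. Its replicates were farther apart than those of MMP3, by 1.36 times in KO and 1.58 times in WT, and the groups did not overlap. The log2 fold change was 2.38 (SE 0.38, edgeR adjusted p = 3.05e-06), or 5.19-fold with an interval from 3.06 to 8.80. Among all genes tested, MMP3 held rank 87 and MMP10 rank 101 by log2 fold change from the highest down. On the log2(RPKM + 1) scale, which understates changes of low genes, the values were 1.32 for MMP3 and 1.29 for MMP10.

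The gelatinases MMP2 and MMP9 degrade denatured collagen and type IV collagen of the basement membrane, and both rose. MMP2, which MMP14 activates at the cell surface, was at 11.7 and 10.8 RPKM in KO and at 4.40 and 4.04 RPKM in WT. These were 829 and 680 counts against 250 and 205, with the second replicate at 0.925 times the first in KO and at 0.917 times in WT. Its log2 fold change was 1.48 (SE 0.12, edgeR adjusted p = 5.44e-13), a rise of 2.80-fold. MMP9 was at 4.45 and 5.20 RPKM in KO and at 1.83 and 2.33 RPKM in WT, and KO replicate 1 was 1.91 times WT replicate 2, the closest pair across the groups. Its log2 fold change was 1.28 (SE 0.21, edgeR adjusted p = 3.87e-06), a rise of 2.43-fold. Corrected for GC and length, its log2 value was 0.99 (edgeR adjusted p = 0.000259), just under 2-fold. The intervals of the fold, from 2.38 to 3.29 in MMP2 and from 1.82 to 3.25 in MMP9, overlapped.

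MMP14, the membrane-anchored MT1-MMP, was the most abundant of the 10 per length in every library. It was at 139 RPKM in each KO library and at 98.8 and 105 RPKM in the WT libraries, from 9794 and 8721 counts against 5594 and 5330. The rise was among the smallest of the 9 and among the most precisely measured, with a log2 fold change of 0.51 (SE 0.053, edgeR adjusted p = 5.03e-10), or 1.43-fold with an interval from 1.33 to 1.54. When counts were corrected for GC and length, the log2 value was 0.34, still past the threshold.

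The inhibitors rose by different amounts. TIMP3, which binds to the extracellular matrix and also inhibits ADAM proteases, was at 7.05 and 7.43 RPKM in KO and at 2.20 and 1.86 RPKM in WT. Its lowest KO library was 3.20 times its highest WT library, and the log2 fold change was 1.90 (SE 0.14, edgeR adjusted p = 5.99e-14), or 3.73-fold with an interval from 3.08 to 4.52. TIMP1, a soluble inhibitor that forms a complex with the MMP9 precursor, was at 31.0 and 28.7 RPKM in KO and at 22.4 and 20.2 RPKM in WT. It rose by 1.47-fold, a log2 fold change of 0.56 (SE 0.10, edgeR adjusted p = 3.42e-05), with an interval from 1.27 to 1.70 that lies below that of TIMP3. Corrected for GC and length, TIMP1 had a log2 value of 0.27 (edgeR adjusted p = 0.0351). TIMP2, which inhibits MMP14 and also takes part in the activation of MMP2 by it, was at 38.3 and 41.2 RPKM in KO and at 37.4 and 32.7 RPKM in WT. The lowest KO library was only 1.02 times the highest WT library. Its log2 fold change of 0.25 passed the test (SE 0.068, edgeR adjusted p = 0.00353), or 1.19-fold with an interval from 1.08 to 1.31. The call on TIMP2 was lost without WT replicate 2 (log2 fold change 0.15, adjusted p = 0.212, edgeR) and with the GC and length correction (0.15, adjusted p = 0.062, edgeR).

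**Figure D2:**
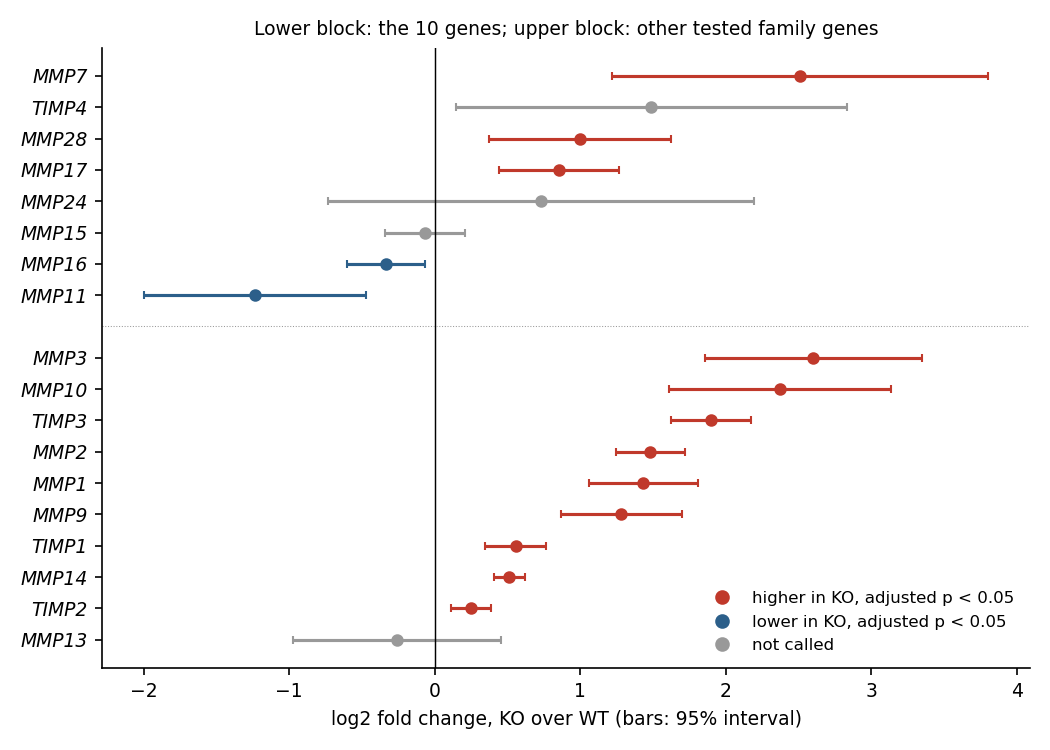
Log2 fold change of KO over WT with its 95% interval, from edgeR, for the 10 genes (lower block) and the 8 other tested MMP and TIMP genes (upper block). In the lower block 9 intervals lie above 0 and that of MMP13 spans it; in the upper block MMP7, MMP28 and MMP17 were called higher and MMP16 and MMP11 lower.

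The order of levels per length was compared within each group. In KO it ran MMP14, TIMP2, TIMP1, MMP2, MMP1, TIMP3, MMP9, MMP10, MMP3 and MMP13, from 138.8 ± 0.364 RPKM (SD, n = 2) down to 0.923 ± 0.151 RPKM (SD, n = 2). Of the 9 neighbouring pairs in this order, only MMP10 and MMP3 overlapped in their libraries. In WT the first 5 genes had the same order, and MMP9, TIMP3, MMP13, MMP10 and MMP3 followed, the last at 0.450 ± 0.0355 RPKM (SD, n = 2). Here MMP9 overlapped with TIMP3 and MMP10 with MMP3. MMP13 held rank 8 of the 10 in WT and rank 10 in KO, since MMP10 and MMP3 stood below it in WT and above it in KO.

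The summed level of the enzymes was then set against that of their inhibitors. The 7 MMPs summed to 168.5 and 169.6 RPKM in the KO libraries and to 109 and 118 RPKM in the WT libraries, and the 3 TIMPs to 76.3 and 77.3 RPKM against 62.0 and 54.8 RPKM. Both sums were higher in KO without overlap. The ratio of summed MMP to summed TIMP was 2.21 and 2.19 in KO and 1.77 and 2.15 in WT, so KO was higher by a log2 difference of 0.18, which is smaller than the distance between the WT libraries. A two-sided exact permutation test gave p = 0.333, the smallest value that 2 libraries against 2 allow. Without WT replicate 1 the difference was 0.036, and without WT replicate 2 it was 0.32.

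MMP14 made up 82.2% and 82.0% of the summed MMP level in KO and 90.3% and 89.5% in WT. With MMP14 left out, the 6 secreted MMPs summed to 30.0 and 30.5 RPKM in KO against 10.7 and 12.4 RPKM in WT, and their ratio to the TIMPs was 0.393 and 0.395 in KO against 0.172 and 0.226 in WT. The log2 difference of that ratio was 1.00, with the groups apart, and the exact permutation test again gave its smallest possible p = 0.333. Among the inhibitors, TIMP3 made up 9.24% and 9.61% of the summed level in KO and 3.56% and 3.39% in WT, while TIMP2 made up 50.2% and 53.2% against 60.4% and 59.7%. These sums are of transcripts, and protein, secretion and activation were not measured here.

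**Figure D3:**
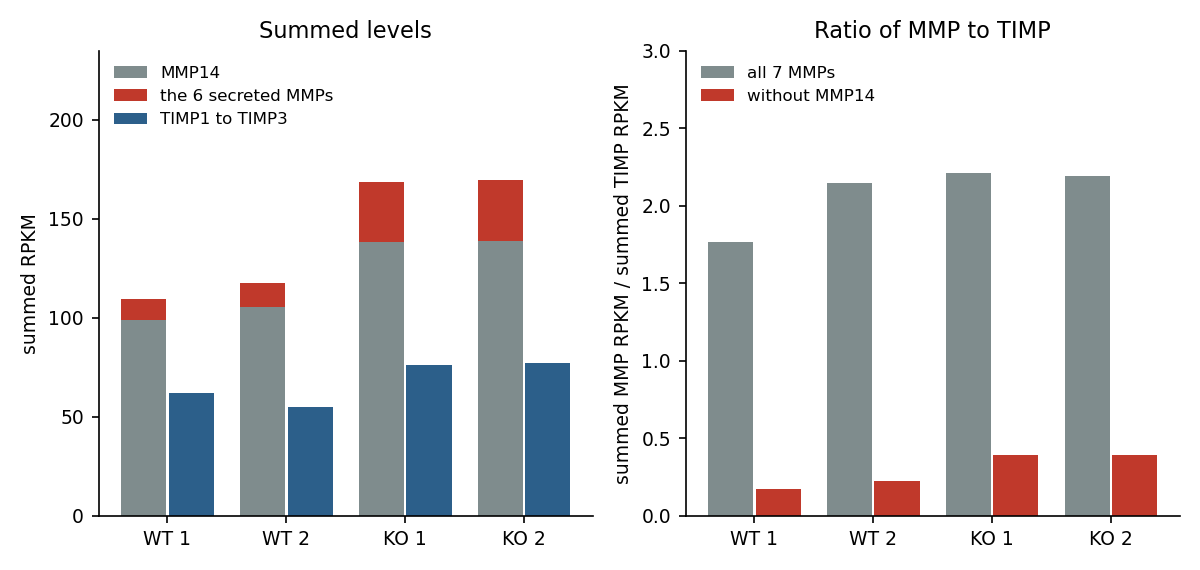
Left, summed RPKM per library of MMP14 (grey), of the 6 secreted MMPs stacked on it (red) and of the 3 TIMPs (blue). Right, ratio of summed MMP to summed TIMP RPKM with all 7 MMPs (grey) and without MMP14 (red), where the red bars are 0.393 and 0.395 in KO and 0.172 and 0.226 in WT.

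Genes of 4 of the MMPs, MMP10, MMP1, MMP3 and MMP13, lie in the MMP cluster on the long arm of chromosome 11. In GENCODE release 29 on GRCh38 (the submitters' notes name hg19, and the positions here were looked up by Ensembl identifier) they run on the minus strand, MMP10 at chr11:102770503-102780628, MMP1 at chr11:102789920-102798160, MMP3 at chr11:102835801-102843803 and MMP13 at chr11:102942995-102955734. MMP7 (matrilysin), the other cluster gene that could be tested, had 31 and 31 counts in KO and 4 and 5 in WT, a log2 fold change of 2.51 (SE 0.64, edgeR adjusted p = 0.00164). The cluster held 4 genes that rose and, at the end that has MMP13, 1 that did not pass the test. Within 1 Mb of the 4 genes, a window chosen after the values had been seen, 10 other genes were tested with edgeR, of which 0 were higher, also at an unadjusted p under 0.05, and 4 were lower in KO (20.4% and 19.1% of all genes tested), with a median log2 fold change of -0.34. The 4 lower ones were BIRC3, an inhibitor of apoptosis, at -0.90, KIAA1377 at -0.62, the dynein heavy chain gene DYNC2H1 at -0.42 and TMEM123 at -0.26. YAP1, the transcriptional coactivator, did not pass, at -0.045. Over the whole chromosome the median was 0.049 in 852 tested genes, and on the chromosomes of the other 6 genes it was between -0.061 and 0.10.

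**Figure D4:**
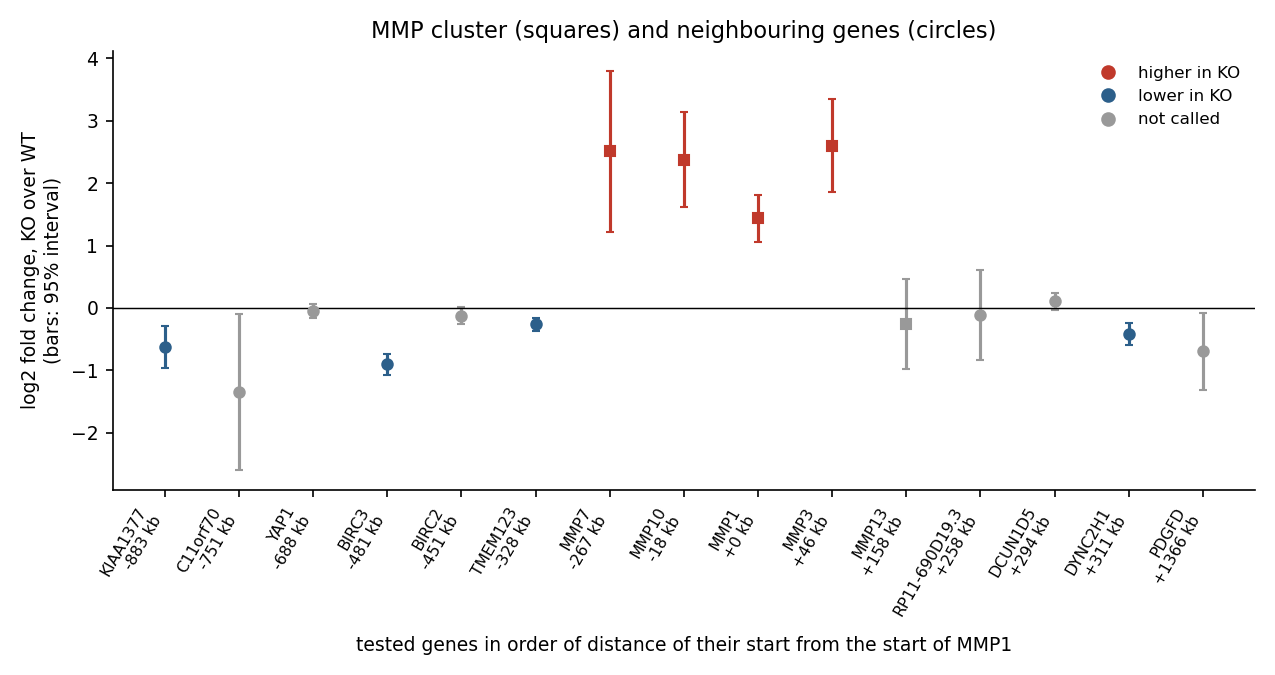
Log2 fold change of KO over WT (bars, 95% interval, edgeR) of the 15 tested genes in and around the MMP cluster, ordered by the distance of their start from that of MMP1 (labels, kb). The 4 squares above 0 are MMP7, MMP10, MMP1 and MMP3; none of the 10 circles was called higher.

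The other 6 genes are single loci on GRCh38 (GENCODE release 29), MMP2 at chr16:55389700-55506691, MMP9 at chr20:46008908-46016561, MMP14 at chr14:22836557-22849027, TIMP1 at chrX:47582313-47586789, TIMP2 at chr17:78852977-78925387 and TIMP3 at chr22:32801701-32863043. Genes on either strand overlap several of the 10. TIMP1 lies within SYN1 and TIMP3 within SYN3, both on the opposite strand, and use of strand in the counting is not given in the sources used here. The overlapping genes that have counts, namely WTAPP1 at MMP1, MMP3 and MMP10, SLC12A5-AS1 at MMP9, CEP295NL and AC100788.1 at TIMP2 and SYN3 at TIMP3, held at most 12 counts in any library. About 11.1% of the 50-nt stretches of MMP9 and 13% of those of TIMP2 also occur in such overlapping transcripts, 3.44% of those of MMP2 and 2.92% of those of MMP1.

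The promoter table used here held 4 of the 10 genes, MMP10, MMP14, TIMP1 and TIMP3, all of which rose. Promoters of the remaining members, among them MMP1, MMP3, MMP9 and MMP13, were not in it and were not searched. The 200 bases before the RefSeq start of each are shown 5′ to 3′ in the sense of the gene (GRCh38.p14). Capitals mark, in MMP10, TGANTCA (the AP-1 site with a free centre) and the TATA box TATAAA, in TIMP1 TGAGTAA, and in MMP14 and TIMP3 the GC box GGGCGG on either strand.
MMP10 (chr11:102780629-102780828, minus strand): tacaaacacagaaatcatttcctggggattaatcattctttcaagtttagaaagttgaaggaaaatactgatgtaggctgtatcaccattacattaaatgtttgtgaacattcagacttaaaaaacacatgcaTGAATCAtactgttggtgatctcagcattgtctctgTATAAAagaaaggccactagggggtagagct
MMP14 (chr14:22836385-22836584, plus strand): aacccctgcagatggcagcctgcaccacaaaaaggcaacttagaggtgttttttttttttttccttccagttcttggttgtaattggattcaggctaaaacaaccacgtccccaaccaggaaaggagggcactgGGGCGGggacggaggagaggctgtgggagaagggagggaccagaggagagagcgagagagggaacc
TIMP1 (chrX:47582236-47582435, plus strand): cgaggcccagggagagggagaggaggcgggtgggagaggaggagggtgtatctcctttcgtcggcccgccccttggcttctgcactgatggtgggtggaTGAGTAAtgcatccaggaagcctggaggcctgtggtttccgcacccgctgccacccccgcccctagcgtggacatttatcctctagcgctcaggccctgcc
TIMP3 (chr22:32801505-32801704, plus strand): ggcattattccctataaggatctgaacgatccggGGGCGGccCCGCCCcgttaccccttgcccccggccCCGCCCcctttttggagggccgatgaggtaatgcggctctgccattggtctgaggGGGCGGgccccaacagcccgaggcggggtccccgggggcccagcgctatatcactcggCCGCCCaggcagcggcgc
Both strands of the 250 bases before the start were searched. The AP-1 site TGAGTCA was in 0 of the 4 windows and in 4.2% of 35093 RefSeq promoters. TGANTCA, which includes TGAGTCA, was in MMP10, 67 bases before the start, and in 6.57% of all promoters. TATAAA was also in MMP10 and in 10.7% of all. TGAGTAA, searched after the TIMP1 sequence had been seen, was in TIMP1 and in 2.21% of all. GGGCGG was in MMP14, TIMP1 and TIMP3 and in 42.6% of all, and the ETS core AGGAAG was in TIMP1 and in 28.7% of all. A match describes the letters of the window and is not a shown binding site. The GC content of the 200 bases was 35.5% in MMP10, 53.5% in MMP14, 65% in TIMP1 and 70.5% in TIMP3.

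Of the 17 other genes of the families, MMPs and TIMP4, 13 were analysed and 8 had enough counts for a test, 3 of them higher, 2 lower and 3 not called, where 20.4% of all genes tested were higher and 19.1% lower. The higher genes were MMP7, MMP28 (epilysin), with a log2 fold change of 1.00 (adjusted p = 0.00871, edgeR), and the membrane-bound MMP17, at 0.85 (adjusted p = 0.00082, edgeR). MMP11 (stromelysin 3), which unlike most MMPs is secreted in active form, fell by 1.23 on the log2 scale, with 34 and 21 counts in KO and 61 and 48 in WT (adjusted p = 0.00823, edgeR). MMP16, a membrane-bound relative of MMP14, fell by 0.33 on the log2 scale (adjusted p = 0.0424, edgeR). The lower calls were the less stable, and 0 of the 2 were made without KO replicate 2, without WT replicate 1 or with DESeq2. TIMP4 had 18 and 22 counts in KO and 8 and 4 in WT and did not pass (adjusted p = 0.0727, edgeR). All 8 were at 5.04 RPKM or less in every library. Of the 5 without a test, MMP12 (macrophage elastase), MMP21 and MMP23B were at 5 counts or fewer in each library, MMP19 had 0 and 2 counts in KO and 6 and 11 in WT, and MMP25 had 10 at most. MMP8, MMP20, MMP26 and MMP27 were not analysed here.

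Genes that activate MMPs or hold them at the cell surface were examined next, together with the plasminogen system, whose protease plasmin removes MMP prodomains. Of 20 such genes, 18 were tested, and 10 were higher, 3 lower and 5 not called, with a median log2 fold change of 0.24. The higher share was above the 20.4% of all genes tested, and the lower share was near the 19.1% of all. This list was chosen with earlier results of these data known, so its shares are descriptive and cannot test an excess. PCSK5, a proprotein convertase, had 105 and 133 counts in KO against 3 and 5 in WT (log2 fold change 4.62, adjusted p = 7.75e-11, edgeR). SERPINE2, an inhibitor of plasminogen activators and thrombin, rose with a log2 fold change of 1.22, and BSG, the MMP inducer EMMPRIN, with 0.59. The convertase PCSK6 and the tetraspanin CD151 rose by 0.44 each on that scale. FURIN, which cleaves the MMP14 precursor, rose by 0.22 on the log2 scale. PLAUR, the urokinase receptor, rose by 0.34, while urokinase itself, PLAU, fell by 0.16 on the log2 scale and CLDN1 fell by 0.20. LRP1, an endocytic receptor that clears MMPs and TIMPs, fell by 0.64 on the log2 scale (adjusted p = 1.76e-05, edgeR). RECK, a membrane-anchored MMP inhibitor, did not pass the test, at -0.012.

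Among 18 AP-1, ETS and RUNX factors, which bind many MMP promoters, 9 were higher, 4 lower and 5 not called, with a median log2 fold change of 0.45. The share called higher lay above the 20.4% of all genes tested, and that called lower was close to 19.1%. This list, too, was chosen with earlier results known, so its shares cannot test an excess. JUNB was at 117 and 112 RPKM in KO and at 59.2 and 64.2 RPKM in WT, a log2 fold change of 0.96 (adjusted p = 5.35e-15, edgeR). FOSL1, the most abundant of them, was at 264 and 254 RPKM against 180 and 174 RPKM, a log2 fold change of 0.62, and JUN had one of 0.79. FOS also passed (1.05, adjusted p = 0.0413, edgeR), from 65 and 37 counts against 20 and 21. ERG had the largest rise, 2.71 on the log2 scale, from 182 and 175 counts against 29 and 17. ETV4, ETS1, ETS2 and RUNX1 rose by 0.61, 0.57, 0.49 and 0.42. The factors that did not pass the test were FOSB (1.03), FLI1 (0.29), FOSL2 (0.083), ATF3 (0.074) and JUND (-0.010). The lower factors were ETV1 (-0.79), ETV5 (-0.50), RUNX2 (-0.48), which drives MMP13 in bone and cartilage, and the epithelial factor ELF3 (-0.47).

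The ADAM and ADAMTS proteases, which share the zinc site with MMPs, gave 4 higher, 4 lower and 7 uncalled genes among 15 tested, where 39.5% of all genes tested were called. ADAM19 (1.11), ADAMTS15 (1.01), ADAMTS1 (0.90) and ADAM15 (0.28) rose by these log2 values, whereas ADAM28 (-1.47), ADAM17 (-0.37), the sheddase of TNF, ADAM10 (-0.25) and ADAM8 (-0.24) were lower. ADAM10 and ADAM17 are targets of TIMP3.

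Of 22 matrix proteins that MMPs cut or that bind them, 19 were tested, and 14 were higher, 3 lower and 2 not called. The median log2 fold change was 0.48. Among all genes tested, 20.4% were higher and 19.1% lower. Earlier results were known when this list was chosen as well, so its shares cannot test an excess. TNC (1.02) and FN1 (0.96), which encode tenascin-C and fibronectin, had the largest log2 fold changes, and LAMB3, COL17A1 and LAMA3, chains of laminin-332 and of the hemidesmosome, rose by 0.86, 0.79 and 0.76. SPARC fell by 0.64 on the log2 scale, COL4A5 fell by 0.31 and HSPG2, perlecan, fell by 0.27. Among the fibrillar collagens, substrates of the collagenases, COL1A2 and COL3A1 had 3 counts or fewer in each library, COL1A1 had between 159 and 228 and did not pass the test (-0.051), and COL5A1 rose by 0.71 on the log2 scale.

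**Figure D5:**
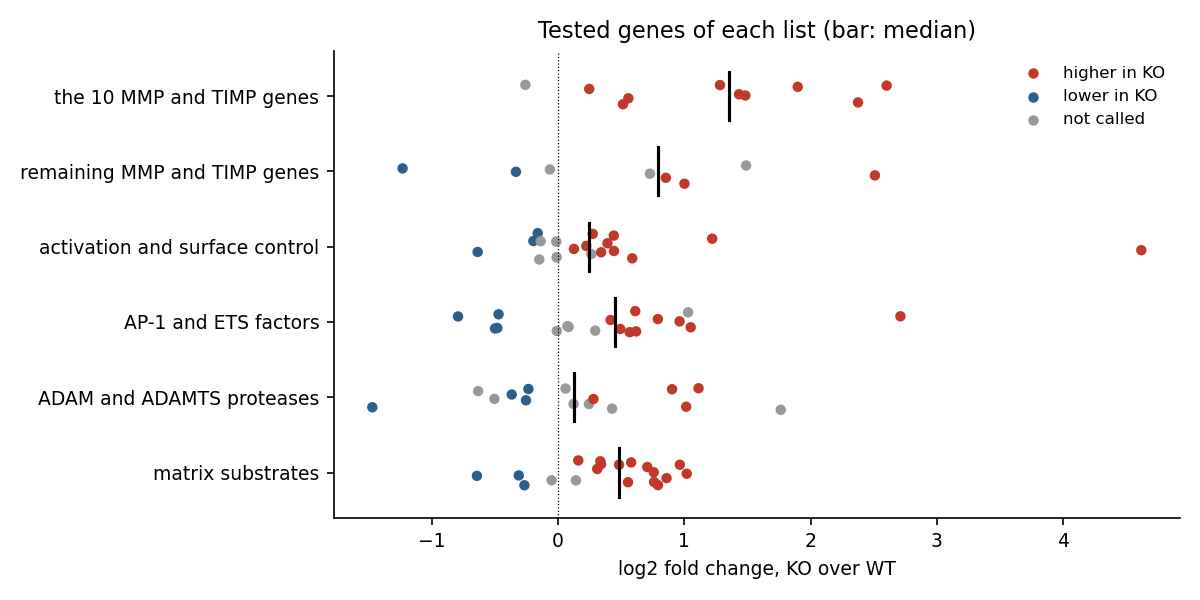
Log2 fold change of KO over WT of every tested gene in each list (points), with the list's median (black bar); red was called higher and blue lower in KO at an adjusted p under 0.05. The median was 1.36 for the 10 MMP and TIMP genes and between 0.12 and 0.79 for the 5 other lists.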

How the data were processed

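RNA of 2 KO and 2 WT cultures of HN12 cells was sequenced as 50-nt reads. The authors deposited raw read counts per gene under Ensembl identifiers, and RPKM values, which equal each count divided by the library total and 1 length per gene (spread at most 1.4e-05%). The submitters' processing notes name CASAVA, STAR 2.5, HTSeq, edgeR 3.16.5, DESeq2 and hg19. Annotation and use of strand are not given in the sources used here.

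The 10 genes, the further lists and the tests were chosen with earlier results of these data known. Deposited counts were compared with edgeR 4.0.16 in R 4.3.3 (filterByExpr, which kept 15104 genes, TMM factors between 0.975 and 1.03, glmQLFit and glmQLFTest, no replicate term, Benjamini-Hochberg adjustment over all genes tested, call at 0.05). Standard errors came from the fold change and F. Levels of different genes were compared in RPKM only. Precision of low genes is limited by depth: a count of 0 allows 3 counts, or between 0.158 and 0.221 CPM, for counting error only. The chi-square statistic per degree of freedom between replicates was 4.20 in KO and 3.36 in WT, above sampling noise. The test was checked on simulated counts. GC content and positions came from GENCODE 29, which matched 25550 of 26726 genes, and promoters from a RefSeq table, which held 4 of the 10 genes.

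Named were all 10 genes, ATAD3A, genes overlapping the 10 and, per list, at most 5 called genes per direction with groups apart. Genes outside this rule, such as COL1A1, COL5A1, FURIN, PLAUR, ETS1, ETS2, ETV4, RUNX1, RECK and TIMP4, were chosen after their values were seen. So were the uncalled AP-1 and ETS factors, the uncalled or untested family genes and the neighbours of the cluster. Alternatives were DESeq2 1.42.0, its size factors in edgeR, library totals, edgeR's exact test, 2 filters, a replicate block, the GC and length correction by splines with 4 degrees of freedom, limma 3.58.1 on log2(RPKM + 1) and log2(RPKM + 0.1), the study's thresholds (unadjusted p under 0.05 with a fold over 1.25 or under 0.75) and leaving out each library.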

Additional observations from a re-analysis of the deposited data

How the results depend on the processing

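The 10 fold changes, that of ATAD3A and the ratio of sums kept their direction in all alternatives run. For the ratio, the replicate block could not change the value. The calls of MMP1, MMP2, MMP3, MMP9, MMP10, MMP14, TIMP1 and TIMP3 held in 15 of 15 alternatives each, and MMP13 was called in none. TIMP2 kept its call in 11 of 15 and lost it in limma on log2(RPKM + 1) (0.18, adjusted p = 0.113) and log2(RPKM + 0.1) (0.18, adjusted p = 0.11), in the GC and length correction and without WT replicate 2, and its 1.19-fold rise is under the study's fold threshold, so the number of the 10 genes called higher was 8 or 9. The ratio of summed MMP to TIMP moved from 0.18 to 0.40 as a mean of log2(RPKM + 0.1) and to 1.00 without MMP14, and ranged from 0.036 to 0.32 with a library left out. With a library left out, the lone one of its group is assumed to vary like the other group's. ATAD3A ranged from -1.89 to -1.55 with a library left out.

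In the lists, remaining MMP and TIMP genes called lower numbered 0 with DESeq2, 1 without a filter, 1 in each limma fit, 1 at the study's thresholds and 0 to 1 with a library left out. Activation genes called higher numbered 6 on log2(RPKM + 1), and those called lower 1 at the study's thresholds and from 1 to 4 with a library left out, the 1 being without WT replicate 2. ADAM genes called higher numbered 2 on log2(RPKM + 0.1) and those called lower 2 at the study's thresholds, where matrix substrates called lower numbered 1. The causes were not tested. Calls over all genes with DESeq2 were 2165 higher and 1881 lower, against 3074 and 2891. Scaling by library totals gave 2508 higher and 3615 lower.

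The labels give KO and WT the same replicate numbers, but nothing says that a number marks a shared culture day, and deviations of same-numbered libraries correlated at -0.022 over the tested genes. With the replicate block 3010 genes were higher and 2810 lower, and 9 of the 10 genes were called higher. The ratio of sums was compared as a difference of log2 means, which is the same with or without pairing. The block therefore could not test it. With the block and the GC and length correction together TIMP2 passed (adjusted p = 0.0452, edgeR).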
